A study of Homo sapiens with 12 samples.

Results

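The MYC, MAX and MXD network was examined through the 9 genes MYC, MAX, MXD1, MXD3, MXD4, MXI1, MNT, MLX and MGA, taken by symbol from the 54628 genes of the count table. All 9 passed the filter on low counts and were among the 15492 genes tested. The proteins of this network bind DNA in pairs. MAX is the shared partner: with MYC it activates genes of growth, ribosome production and proliferation through the E-box CACGTG, and with an MXD protein, MXI1 or MNT it occupies the same E-box and recruits SIN3 and histone deacetylases, which silence genes. MGA pairs with MAX inside a Polycomb complex, and MLX is a relative of MAX that pairs with the glucose sensing MondoA and ChREBP proteins and with some MXD proteins and MNT. In erythroid precursors MYC is known for sustaining proliferation, and its decline accompanies terminal maturation.

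A total of 12 libraries were analyzed from HUDEP-2, an immortalized human erythroid precursor line derived from umbilical cord blood, in 4 groups of 3 replicates. Cells carried a scrambled guide RNA (sgControl) or a guide to a site upstream of EGR1 (sgEGR1), delivered by lentivirus together with CRISPR interference through dCas9-KRAB, and were used as sorted GFP+ populations rather than clones. All cells were grown with SCF, erythropoietin, dexamethasone and doxycycline, deprived of growth factors for 5 h and then given PBS or 50 ng/mL SCF, the ligand of the Kit receptor, for 1 h. The comparisons ask how acute Kit signaling changes the network mRNAs and whether the guide near EGR1 alters that response.

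The sgEGR1 guide defines the genetic comparison and is shown for that reason, in lower case with the bases that follow the target on the genome (the PAM) in capitals. The sgEGR1 target lies at chr5:138464830-138464849 on the plus strand of hg38, 630 bases before the annotated start of EGR1, and is the only perfect match of this guide on the assembled chromosomes (1 match).
sgEGR1: ggatgacagcgatagaacccCGG

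The E-box CACGTG is the site through which the network acts, and it also occurs in front of 3 network genes, shown here with the E-box in capitals. RefSeq windows of GRCh38.p14, which run from 250 bases before to 50 bases after a start site, were matched for 8 of the 9 members. MYC had no matched window, so its promoter was not searched for any motif. CACGTG was found in the windows of MLX, MXD4 and MNT. Counted from the start site, it begins at position -50 for MLX, -238 for MXD4 and -193 for MNT. The printed stretches are chr17:42566850-42567099 on the plus strand for MLX, chr4:2262315-2262359 on the minus strand for MXD4 and chr17:2401221-2401280 on the minus strand for MNT.
MLX: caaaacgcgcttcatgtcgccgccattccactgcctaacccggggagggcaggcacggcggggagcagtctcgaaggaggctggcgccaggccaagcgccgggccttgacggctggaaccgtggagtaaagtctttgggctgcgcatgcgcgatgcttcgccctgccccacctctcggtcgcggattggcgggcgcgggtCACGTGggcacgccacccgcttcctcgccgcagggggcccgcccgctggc
MXD4: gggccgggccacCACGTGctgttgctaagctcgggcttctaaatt
MNT: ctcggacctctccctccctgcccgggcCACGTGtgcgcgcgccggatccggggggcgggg
A gene can have several windows, so motifs were counted per gene, on either strand and in any of its windows. CACGTG was present for 8.77% of the 27305 genes with a window. The EGR-like motif GCGTGGG, present for 8.3% of genes, was found for 0 of the 8 members with a window, which leave out MYC. The AP-1 motif TGANTCA, present for 9.37% of genes, was found for MXD3, and the ETS motif CCGGAAG, present for 12.2%, was found for MAX. None of these 4 motifs overlaps another in the member windows. These matches describe the letters of the windows and not occupancy.

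EGR1, the gene targeted by the guide, was read first in every library. Its level is given in CPM, counts per megacount of scaled library total. In sgControl cells EGR1 stood at 10.9, 5.98 and 7.44 CPM after PBS and at 207, 239 and 171 CPM after SCF, in replicates 1, 2 and 3. In sgEGR1 cells it stood at 2.04, 1.12 and 0.976 CPM after PBS and at 40.4, 57.3 and 203 CPM after SCF. The library labelled sgEGR1 SCF replicate 3 therefore held 98.8% of the mean level of the sgControl SCF libraries, while replicates 1 and 2 averaged 23.7% of it. This library goes against its label, and results that rest on it are also given without it.

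Library totals ran from 23.5 to 32.04 megacounts. Replicate 1 of every group stood apart: with a term for replicate 1 in the model, edgeR called 26.6% of the tested genes, and among the members only MYC, which was lower in replicate 1 by a log2 difference of -0.16 (adjusted p = 0.00811). All 15 erythroid marker genes passed the filter on low counts, although HBG1 ranged from 0 to 166 CPM over the libraries. Their summed level was 27793 to 31883 CPM in PBS and 26747 to 30383 CPM in SCF libraries. The erythroid list moved with SCF: its median log2 fold change was -0.12 in sgControl cells, -0.17 in sgEGR1 cells and -0.14 in the average over guides, against -0.006, -0.00048 and -0.0045 over all tested genes. In the average, where 5.6% of tested genes were called higher and 3.45% lower, 0 of its genes were called higher and 2 lower. These were SLC4A1, which encodes the band 3 anion exchanger (log2 fold change -0.26, edgeR adjusted p = 0.00856), and EPOR, the erythropoietin receptor (-0.14, adjusted p = 0.036). SLC4A1 was also called lower in sgEGR1 cells (-0.31, adjusted p = 0.0471), and these genes were named after their values were seen. Of 10 markers of other blood cells, 6 were at 0 in every library, and the summed level of the list stayed between 22.2 and 35.1 CPM, nearly all of it from PTPRC. The megakaryocyte markers GP9, PF4 and PPBP were at 0, with ITGA2B alone giving 12.003 to 35.1 CPM. The fibroblast and epithelial list summed to 138 to 172 CPM, mostly EPCAM. The part of these marker lists in the results was not tested.

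MYC (chromosome 8, positions 127735434 to 127742951, plus strand, GRCh38), the activator of the network, rose close to 2-fold within 1 h of SCF in both guide populations. In these bulk samples a change in the RNA of each cell and a change in the mix of cells cannot be told apart. In sgControl cells MYC stood at 209.9, 233 and 227 CPM after PBS and at 436, 428 and 441 CPM after SCF, means of 223 ± 11.8 and 435 ± 6.54 CPM (SD, n = 3). The sgEGR1 libraries held 196, 229.9 and 237 CPM after PBS and at 372, 443 and 453 CPM after SCF, means of 221 ± 21.9 and 423 ± 44.1 CPM. Every SCF library lay above every PBS library, and the lowest SCF library, sgEGR1 replicate 1, held 1.57 times the level of the highest PBS library. Replicate 1 was the lowest library in both sgEGR1 groups and in sgControl PBS, but not in sgControl SCF.

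The log2 fold change of MYC was 0.96 (SE 0.0825) in sgControl cells, an increase of 1.95-fold, with an adjusted p of 9.66e-05 (edgeR quasi-likelihood test, Benjamini-Hochberg adjustment over all tested genes). In sgEGR1 cells it was 0.94 (SE 0.0825), 1.91-fold, with an adjusted p of 0.000117. MYC ranked 11th and 12th by p among the tested genes in these comparisons. MYC was also the only member called in either by this fit, against a background of 2.89% of tested genes called in sgControl cells and 2.59% in sgEGR1 cells. Other settings called more members in sgControl cells. DESeq2 called MYC, MXD1 and MLX there, against 6.23% of genes with an adjusted p. A replicate block called MYC, MAX, MXD3, MXD4 and MLX, against 7.64% of tested genes. A replicate 1 term called MYC, MAX, MXD3 and MLX, against 8.32%. In sgEGR1 cells DESeq2 called MYC alone, the block MYC and MXD4, and the replicate 1 term MYC, MXD4 and MLX. MYC was called under each of the 19 alternative settings in both guide populations, with log2 fold changes of 0.92 to 0.99 in sgControl cells and 0.86 to 1.02 in sgEGR1 cells. With the library labelled sgEGR1 SCF replicate 3 left out, the remaining sgEGR1 SCF libraries averaged 408 CPM of MYC, 93.8% of the sgControl SCF mean, and the log2 fold change in sgEGR1 cells was 0.89 (edgeR adjusted p = 0.000875).

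**Figure D1:**
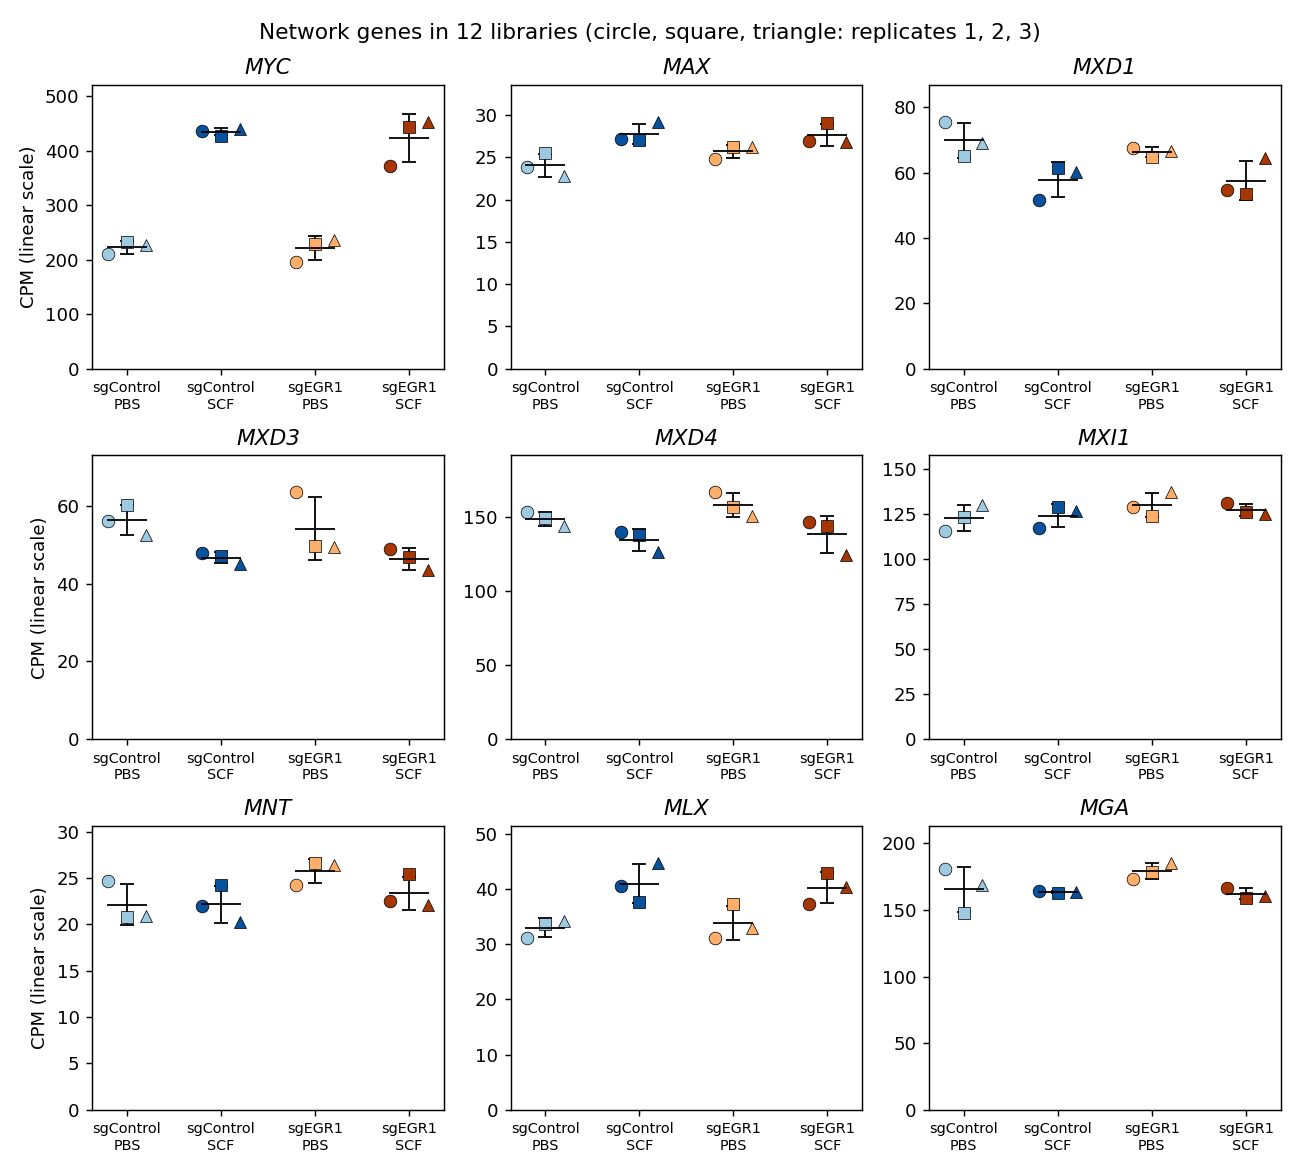
CPM of each network gene (y axis, linear, starting at 0) in the 4 groups, with 1 point per library, a black dash for the mean and bars for the SD (n = 3); circles, squares and triangles are replicates 1, 2 and 3. MYC separates SCF (372 to 453 CPM) from PBS libraries (196 to 237 CPM) by the widest margin of the 9 genes, while MXD4, MXI1, MNT and MGA overlap between the treatments.

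To compare PBS with SCF for the smaller changes, the SCF effect was also averaged over both guides in the same model, which sets 6 PBS against 6 SCF libraries. In this comparison 6 of the 9 members were called, against 9.05% of all tested genes. MYC, MLX and MAX were higher after SCF, where 5.6% of tested genes were called higher, and MXD1, MXD3 and MXD4 were lower, where 3.45% were called lower. For 5 of the 9 members (MYC, MLX, MAX, MXD1 and MXD3) the 6 SCF libraries did not overlap the 6 PBS libraries, which held for 6.91% of tested genes. The median log2 fold change was -0.07 over the members and -0.0045 over all tested genes. Only the calls of MYC and MLX were retained when each library was left out in turn. With the library labelled sgEGR1 SCF replicate 3 left out, 3 members were called (MYC, MLX and MXD1), against 6.95% of tested genes in that fit, and with a term for replicate 1 added as well all 6 were called, against 15.4% of tested genes. Calls were also lost with DESeq2 size factors (MAX), without the filter on low counts (MAX and MXD4) and with replicates 2 and 3 only (MAX and MXD1). All 6 were called with DESeq2, a replicate block and a replicate 1 term. DESeq2 called 1791 genes there (13.4% of those with an adjusted p). The block called 2795 (18%) and the replicate 1 term 2869 (18.5%) of 15492 genes.

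MAX (chromosome 14, positions 65006174 to 65102695, minus strand), the obligate partner of MYC and the MXD proteins, changed little. It stood at 23.8, 25.5 and 22.8 CPM after PBS and at 27.1, 27.1 and 29.2 CPM after SCF in sgControl cells, and at 24.9, 26.2 and 26.2 CPM and 26.97, 29.1 and 26.8 CPM in sgEGR1 cells. The 6 SCF libraries all lay above the 6 PBS libraries, but the gap between the highest PBS and the lowest SCF library was only 1.02-fold. Averaged over both guides the log2 fold change was 0.16 (95% interval 0.06 to 0.25, edgeR adjusted p = 0.0497). That call was lost when any library other than sgControl PBS replicate 2 was left out, with an adjusted p of up to 0.118. It was lost too with DESeq2 size factors (adjusted p = 0.0512), without the filter (0.0797) and with replicates 2 and 3 only (0.105). In sgEGR1 cells, with the library labelled sgEGR1 SCF replicate 3 left out, the log2 fold change was 0.12 (95% interval -0.04 to 0.29). Exons of other genes on the opposite strand, FNTB among them, cover 16.1% of the MAX exon bases. FNTB itself had a log2 fold change of -0.05 (edgeR adjusted p = 0.846), and CHURC1-FNTB, which ranged from 0 to 22.6 CPM, one of 0.44 (adjusted p = 0.826).

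MLX (chromosome 17, positions 42567072 to 42573239, plus strand), the MAX-like partner of MondoA and ChREBP, increased. In sgControl cells it stood at 31.0, 33.6 and 34.2 CPM after PBS and at 40.4, 37.7 and 44.7 CPM after SCF. The sgEGR1 libraries held 31.2, 37.3 and 32.9 CPM after PBS and at 37.4, 42.9 and 40.3 CPM after SCF. The groups did not overlap within either guide, although the highest PBS library and the lowest SCF library, both from sgEGR1 cells, were nearly equal. The averaged log2 fold change was 0.28 (SE 0.0599, 95% interval 0.15 to 0.41, edgeR adjusted p = 0.0114), and the call held under each of the 19 alternatives. Within single guides the log2 fold changes were 0.31 (adjusted p = 0.0776) and 0.25 (adjusted p = 0.166, and 0.335 with the library labelled sgEGR1 SCF replicate 3 left out, at the same log2 fold change). Exons of PSMC3IP, on the opposite strand, cover 18.2% of the MLX exon bases, and PSMC3IP was called higher too, with a log2 fold change of 0.28 (edgeR adjusted p = 0.0298). The libraries were strand-specific per the study's methods, but the strand setting of alignment and counting was not given in the sources used here, so whether reads of these opposite-strand pairs were kept apart was not settled.

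MXD1 (chromosome 2, positions 69897688 to 69942945, plus strand) encodes MAD1, a MAX partner that represses E-box genes and rises as blood cells leave the cell cycle. It stood at 75.5, 64.9 and 69.2 CPM after PBS and at 51.7, 61.5 and 60.3 CPM after SCF in sgControl cells. Values in sgEGR1 cells were 67.5, 64.7 and 66.5 CPM after PBS and at 54.6, 53.6 and 64.5 CPM after SCF. All 6 SCF libraries were lower than all 6 PBS libraries, with the library labelled sgEGR1 SCF replicate 3 just under the lowest PBS library. The averaged log2 fold change was -0.24 (95% interval -0.37 to -0.11, edgeR adjusted p = 0.0278). The call was kept by 4 of 12 fits with 1 library missing (those without sgControl PBS replicate 2, sgControl SCF replicate 2 or 3, or sgEGR1 SCF replicate 3), and in the other 8 its adjusted p reached 0.0771. With replicates 2 and 3 only, the averaged log2 fold change shrank to -0.14 and was not called (adjusted p = 0.122). In sgEGR1 cells, with the library labelled sgEGR1 SCF replicate 3 left out, it was -0.29 (adjusted p = 0.144).

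MXD3 (chromosome 5, positions 177301461 to 177312757, minus strand), the family member associated with proliferating cells, was also lower. It stood at 56.2, 60.2 and 52.5 CPM after PBS and at 47.8, 47.0 and 45.1 CPM after SCF in sgControl cells, and at 63.5, 49.6 and 49.4 CPM and 49.0, 46.8 and 43.4 CPM in sgEGR1 cells. The treatments did not overlap, and the highest value of the sgEGR1 PBS group came from replicate 1. The averaged log2 fold change was -0.25 (95% interval -0.39 to -0.11, edgeR adjusted p = 0.0326), a call kept by 5 of 12 fits with 1 library missing (without sgControl PBS replicate 3, any sgEGR1 PBS library or sgEGR1 SCF replicate 1), with an adjusted p of up to 0.0847 in the others. MXD3 is the member whose count is least certain, since exons of PRELID1 and RAB24 cover 43.7% of its exon bases. Over both guides PRELID1 had a log2 fold change of 0.08 (adjusted p = 0.343) and RAB24 one of -0.14 (adjusted p = 0.0823).

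MXD4 (chromosome 4, positions 2247432 to 2262109, minus strand), a further repressor that pairs with MAX, stood at 154, 149 and 144 CPM after PBS and at 140.1, 138 and 126 CPM after SCF in sgControl cells. Values in sgEGR1 cells were 167, 157 and 151 CPM after PBS and at 147, 144 and 124 CPM after SCF. The groups were apart within each guide, but sgEGR1 SCF replicate 1 lay above the lowest sgControl PBS library, and replicate 3 was the lowest of every group. The averaged log2 fold change was -0.17 (95% interval -0.27 to -0.07, edgeR adjusted p = 0.0455). Only the fit without sgEGR1 SCF replicate 1 retained this call among those that left out a library, and the adjusted p reached 0.107 in the others. It was lost without the filter as well (adjusted p = 0.0809). In sgEGR1 cells, where residuals of same-numbered libraries were correlated, a replicate block gave 2 called members in place of 1, MYC and MXD4 (MXD4 log2 fold change -0.19, edgeR adjusted p = 0.00832 with the block and 0.18 without it). With the library labelled sgEGR1 SCF replicate 3 left out (it held the lowest MXD4 value), the sgEGR1 log2 fold change was -0.12 (adjusted p = 0.469), and with the replicate 1 term added it was -0.13 and not called (adjusted p = 0.123).

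MXI1 (chromosome 10, positions 110207605 to 110287365, plus strand), the MAX partner also called MXD2, ranged over 115 to 137 CPM in the 6 PBS libraries and over 117 to 131 CPM in the 6 SCF libraries. Its medians were 126 CPM in both treatments. The averaged log2 fold change was -0.01 with a 95% interval of -0.09 to 0.08, the narrowest interval of the 9 members. Among the MAX partners that repress, MXI1 was thus measured at a steady level where MXD1, MXD3 and MXD4 were lower, although no test of the difference between these genes was made.

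MNT (chromosome 17, positions 2384073 to 2401104, minus strand), a repressor expressed in most cell types, and MGA (chromosome 15, positions 41621134 to 41773081, plus strand), the scaffold of the PRC1.6 Polycomb complex, were not called. MNT ranged over 20.8 to 26.6 CPM after PBS and 20.3 to 25.4 CPM after SCF, with an averaged log2 fold change of -0.07 (95% interval -0.21 to 0.07, edgeR adjusted p = 0.596). MGA ranged over 147 to 185 CPM after PBS and 159 to 167 CPM after SCF, with an averaged log2 fold change of -0.08 (95% interval -0.18 to 0.01, adjusted p = 0.314). In sgEGR1 cells the 3 MGA libraries after SCF (167, 159 and 161 CPM) lay below the 3 after PBS (173, 178 and 185 CPM), whereas in sgControl cells the PBS libraries spanned the SCF libraries. Without sgControl PBS replicate 2, the lowest MGA library, MGA was called lower over both guides (adjusted p = 0.0454).

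**Figure D2:**
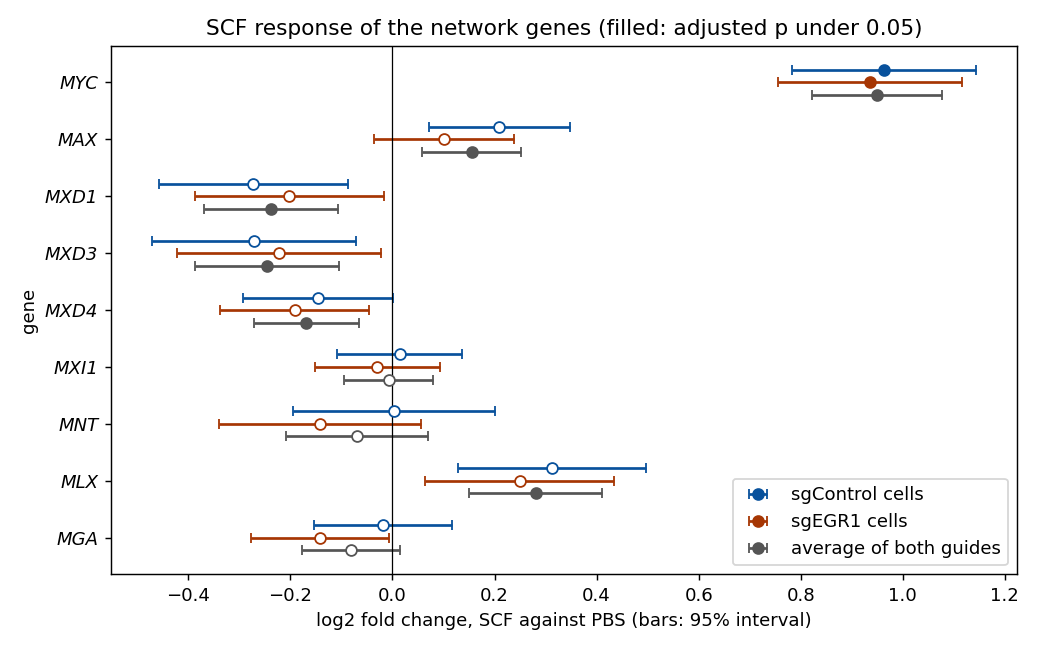
Log2 fold change of SCF against PBS (x axis) for each network gene, in sgControl cells, in sgEGR1 cells and averaged over both, with bars for the 95% interval and filled points where the edgeR adjusted p was under 0.05. MYC lies near 0.95 in all 3 estimates, MAX and MLX to the right of 0 and MXD1, MXD3 and MXD4 to the left, and these smaller changes are filled only in the average.

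Within sgControl cells the SCF and PBS libraries did not overlap for 6 of the 9 members, against 19.6% of tested genes, and within sgEGR1 cells for 7 of the 9, against 21.2%. At an unadjusted p under 0.05, 5 members passed in sgControl cells, against 14.3% of tested genes, and 6 in sgEGR1 cells, against 15%. In sgEGR1 cells 3 members passed with the library labelled sgEGR1 SCF replicate 3 left out, against 12.1% of tested genes.

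Levels of different genes were compared only per length, as CPM per kilobase of the union of annotated exons. After PBS, MYC was the most abundant member mRNA at 36.4 ± 2.58 CPM per kilobase (SD, n = 6), followed by MXD4 at 22.35 and MXI1 at 21.4. MXD3 at 11.6, MXD1 at 10.7, MGA at 8.58 and MLX at 7.85 came next, and MAX at 3.98 and MNT at 2.75 CPM per kilobase were lowest. In both PBS groups the ranges of MXD4 and MXI1, of MXD3 and MXD1, and of MGA and MLX overlapped, so the order inside those pairs was not resolved. After SCF, MYC reached 70.2 ± 4.74 CPM per kilobase, while MXD3, MLX and MXD1 overlapped in a chain between 9.08 and 9.81 CPM per kilobase. MAX remained low at 4.43 CPM per kilobase, under MYC and under MXD4 and MXI1 in every group. With the longest transcript as the length the middle of the order changed: MXD3 was apart from MXD1 and from MLX in every group, and MLX came above MXD1 and MGA, with overlapping ranges after PBS and without overlap after SCF.

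The genes that code for MAX partners (MYC, MXD1, MXD3, MXD4, MXI1, MNT and MGA) were then set side by side as shares of their summed level per kilobase. MYC held 31.9% of this sum after PBS, with libraries from 28.3% to 33.6%, and 49.8% after SCF, with libraries from 45.4% to 51.8%. MXD4 passed from 19.6% to 14.1% and MXI1 from 18.8% to 15.1%. MXD3 passed from 10.2% to 6.97% and MXD1 from 9.42% to 6.44%. Shares add up to the whole, so a share can fall without its level falling: MXI1 stood at 21.4 CPM per kilobase after PBS and 21.3 after SCF. The ratio of MYC to the summed MXD1, MXD3, MXD4 and MXI1 mRNA per kilobase averaged 0.559 ± 0.0309 in sgControl PBS and 1.20 ± 0.0498 in sgControl SCF libraries (SD, n = 3), and 0.544 ± 0.0740 and 1.147 ± 0.153 in the sgEGR1 groups. The sgEGR1 SCF ratio averaged 1.09 (n = 2) with the library labelled sgEGR1 SCF replicate 3 left out. These are shares of mRNA, and protein was not measured.

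**Figure D3:**
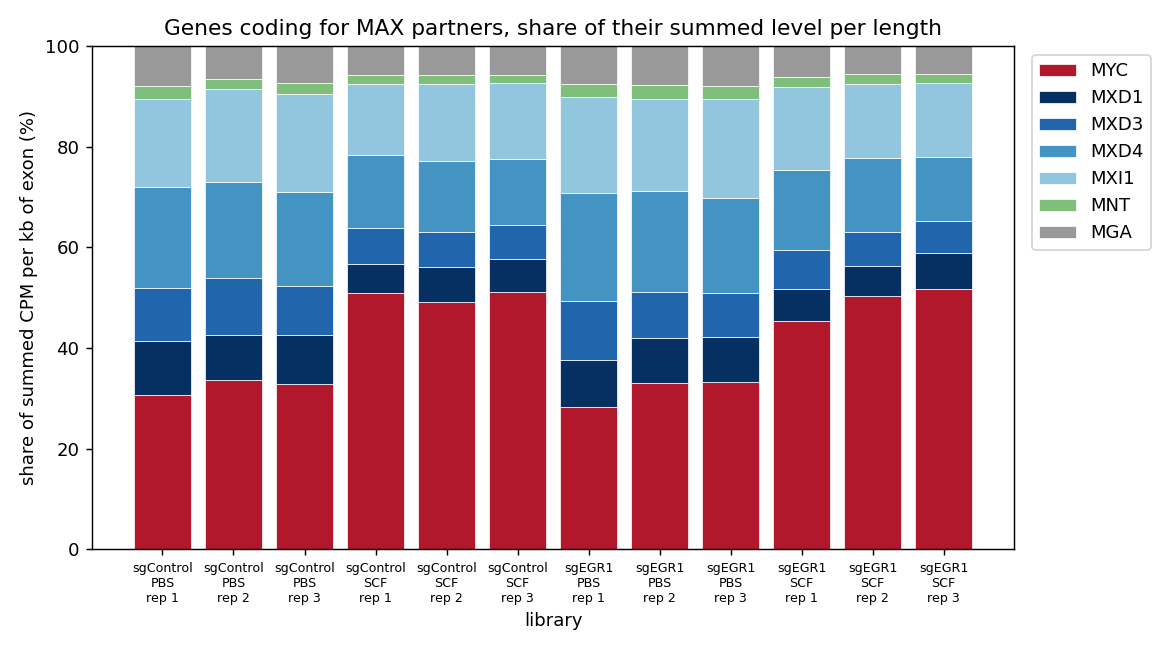
Share (y axis, percent) of each MAX partner gene in their summed CPM per kilobase of exon, with 1 stacked bar per library. The MYC segment spans 28.3% to 33.6% of the bar in the 6 PBS libraries and 45.4% to 51.8% in the 6 SCF libraries.

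The guide near EGR1 was compared next. Between sgEGR1 and sgControl cells 0 of 15492 genes were called by edgeR after PBS and 0 after SCF (0% each; 715 and 361 genes at an unadjusted p under 0.05, and 20 and 5 genes called by DESeq2), and 0 of the 9 members were called by either tool. EGR1 itself was thus not called by edgeR, although after PBS it stood at 5.98 to 10.9 CPM in sgControl and 0.976 to 2.04 CPM in sgEGR1 cells. The lack of a call therefore does not show that the guide left a member unchanged. None of the members separated the guides without overlap, against 9.31% of tested genes after PBS and 7.14% after SCF. MYC differed by a log2 value of -0.01 after PBS (95% interval -0.19 to 0.17) and of -0.04 after SCF (95% interval -0.22 to 0.14). With the library labelled sgEGR1 SCF replicate 3 left out, the values of all members after SCF still fell between -0.10 and 0.11 and 0 were called, while edgeR called 1 gene after PBS and 2 after SCF over the whole table. With a term for replicate 1 added to that fit, edgeR called 51 genes after PBS (0.322%) and 38 after SCF (0.24%), again with 0 members. MNT gave the largest difference after PBS, at 22.1 ± 2.21 CPM in sgControl and 25.8 ± 1.27 CPM in sgEGR1 cells (SD, n = 3), a log2 difference of 0.22 (95% interval 0.02 to 0.42, edgeR adjusted p = 0.999, unadjusted p = 0.0325).

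The difference between the SCF responses of the guide populations was tested as an interaction, in which 0 genes (0%) were called by edgeR, 306 passed an unadjusted p of 0.05 and DESeq2 called 4, with 0 members by either test. For MYC the response in sgEGR1 minus that in sgControl cells was -0.03 (95% interval -0.28 to 0.22, unadjusted p = 0.817). The intervals of the other members all contained 0, and the largest of them was that of MNT, at -0.14 (95% interval -0.42 to 0.14). The interaction, with the library labelled sgEGR1 SCF replicate 3 left out, was -0.08 for MYC (95% interval -0.35 to 0.19) and -0.11 for MNT (95% interval -0.41 to 0.19), and the small differences of MXD1 (0.07) and MXD4 (-0.05) turned to -0.02 and 0.03. In that fit 2 genes and 0 members were called, as with the replicate 1 term added. The plot of MYC against EGR1 shows the same data: in the sgEGR1 SCF libraries EGR1 ranged from 40.4 to 203 CPM and MYC from 372 to 453 CPM, and sgEGR1 SCF replicate 2, at 57.3 CPM of EGR1, held 443 CPM of MYC. Replicate 1, with the lowest EGR1 level after SCF, also held the lowest MYC level after SCF, and it belongs to the replicate in which MYC was lower over the groups.

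**Figure D4:**
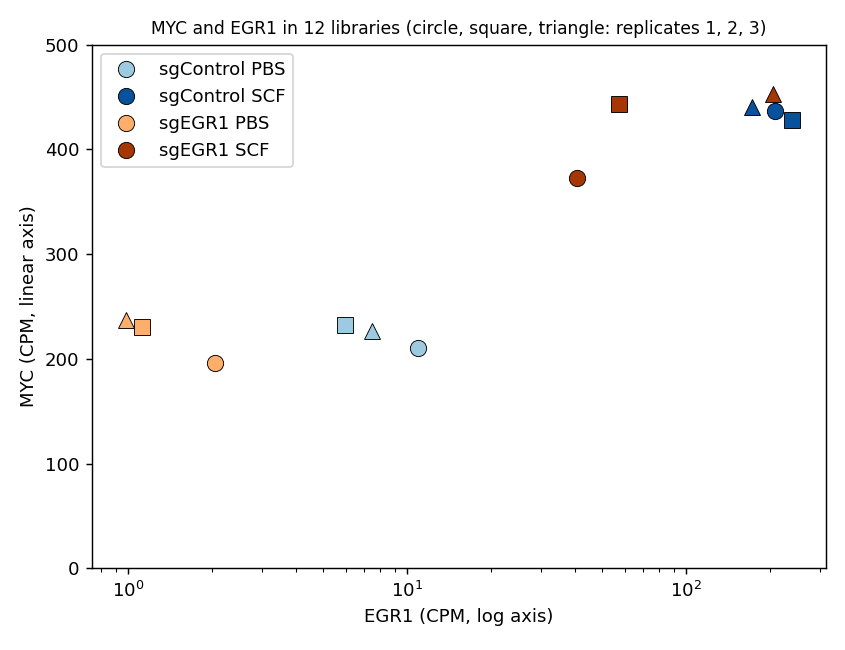
MYC (y axis, CPM, linear from 0) against EGR1 (x axis, CPM, log axis) in the 12 libraries, colored by group, with circles, squares and triangles for replicates 1, 2 and 3. The 6 PBS libraries lie at 196 to 237 CPM of MYC over EGR1 levels of 0.976 to 10.9 CPM, and the 6 SCF libraries at 372 to 453 CPM of MYC over EGR1 levels of 40.4 to 239 CPM.

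Relatives and partners of the members were examined as lists. Of all tested genes, 2.89% were called in sgControl cells and 2.59% in sgEGR1 cells. In the average 5.6% were called higher and 3.45% lower. MYCN was at 0 in every library, which allows at most 0.0936 to 0.128 CPM at 3 counts per library, and MYCL reached only 0.828 CPM. Of the MLX partners, MLXIP, which encodes MondoA, ranged from 128 to 156 CPM and MLXIPL, which encodes ChREBP, from 1.10 to 2.22 CPM, and neither was called in any SCF comparison. Of 12 MYC coactivator genes, among them TRRAP, KAT5 and WDR5, 0 were called in either guide or in the average. Of 13 genes of the SIN3, HDAC and NCOR corepressors, 0 were called in single guides and 3 were lower in the average, namely SIN3A (log2 fold change -0.12, edgeR adjusted p = 0.028), ARID4A (-0.13, adjusted p = 0.0437) and ARID4B (-0.22, adjusted p = 0.0221), named after their values were seen. ZBTB17, which encodes the MYC interactor MIZ1, had a log2 fold change of -0.09 and was not called.

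Among 16 genes that act on MYC stability only FBXO32 was called, against 2.59% of tested genes called in sgEGR1 cells. FBXO32, a ubiquitin ligase subunit better known for muscle atrophy, was lower. In sgEGR1 cells it stood at 10.8, 6.96 and 8.72 CPM after PBS and at 5.28, 5.27 and 5.49 CPM after SCF, a log2 fold change of -0.72 (edgeR adjusted p = 0.0401). In sgControl cells the log2 fold change was -0.55 (adjusted p = 0.118), and over both guides it was -0.63 (adjusted p = 0.00537). The sgEGR1 call was retained in 4 of the 12 fits without a library and the averaged call in all 12. With the library labelled sgEGR1 SCF replicate 3 left out, the sgEGR1 log2 fold change was -0.74 (adjusted p = 0.112). FBXW7, SKP2 and HUWE1, ubiquitin ligases that act on MYC protein, were not called.

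Of 9 genes of the MGA complex, 8 were tested, as RING1 was at 0 in every library. Whether RING1 was not expressed or its reads were not counted under this symbol was not tested. RYBP, a Polycomb subunit that stimulates the ligase activity of the complex, increased. It stood at 121, 115 and 126 CPM after PBS and at 158, 155 and 156 CPM after SCF in sgControl cells, and at 117, 119 and 113 CPM and 155, 148 and 158 CPM in sgEGR1 cells. The treatments did not overlap. The log2 fold change was 0.37 (edgeR adjusted p = 0.000823) in sgControl and 0.40 (adjusted p = 0.000489) in sgEGR1 cells, called under every alternative tried. E2F6, another subunit, named after its values were seen, was called only in the average (0.41, adjusted p = 0.0148). MGA itself was not called, as given above.

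Targets of the network were counted last. Of 25 genes that MYC is known to activate, 4 were called higher and 1 lower in sgControl cells, against 2.89% of tested genes called. In sgEGR1 cells 2 were called higher and 0 lower, against 2.59%. In the average 5 were called higher and 1 lower, against 5.6% higher and 3.45% lower. The median log2 fold change of the list was 0.08, 0.06 and 0.07, against -0.006, -0.00048 and -0.0045 over all tested genes. The 4 named by rule were NOP16, NOP56 and NOLC1, which act in ribosome assembly, and ODC1, the rate-limiting enzyme of polyamine synthesis. NOP16 averaged 14.3 CPM after PBS and 20.6 CPM after SCF in sgControl cells (log2 fold change 0.53, edgeR adjusted p = 0.00704) and 14.2 and 18.6 CPM in sgEGR1 cells (0.39, adjusted p = 0.0363). NOP56 averaged 148 and 181 CPM (0.29, adjusted p = 0.0278) in sgControl and 142 and 175 CPM (0.31, adjusted p = 0.0213) in sgEGR1 cells. NOLC1 (0.18, adjusted p = 0.0403) and ODC1 (0.16, adjusted p = 0.0466) were called in sgControl cells, and in sgEGR1 cells they had log2 fold changes of 0.12 (0.148) and 0.13 (0.112). The fifth gene of the average was CDK4 (0.13, adjusted p = 0.0261), named after its values were seen.

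The gene of this list that fell was TFAP4, a bHLH factor that also binds E-boxes, which lies outside the naming rule and was chosen after its values were seen. It averaged 12.3 CPM after PBS and 8.29 CPM after SCF in sgControl cells (log2 fold change -0.58, edgeR adjusted p = 0.0495) and 11.7 and 8.14 CPM in sgEGR1 cells (-0.52, adjusted p = 0.0789). Of the calls in single guides, only that of NOP16 in sgControl cells was kept in all 12 fits without a library. NOP56 was retained in 7 of 12 in each guide, NOP16 in sgEGR1 cells in 4, NOLC1 in 3, TFAP4 in 2 and ODC1 in 1, with adjusted p-values of up to 0.176 in the others. NOP16 and NOP56 were not called in sgEGR1 cells with the library labelled sgEGR1 SCF replicate 3 left out (log2 fold changes 0.33 and 0.26, adjusted p = 0.151 and 0.0967). TFAP4 was called lower in sgEGR1 cells in that fit (log2 fold change -0.67, edgeR adjusted p = 0.0347), and in no other fit without a library. The averaged calls of NOP16, NOP56, NOLC1, ODC1 and TFAP4 were retained in all 12. NCL, NPM1, CAD and FBL, classical MYC targets of ribosome and nucleotide synthesis, had averaged log2 fold changes of 0.07, 0.04, -0.04 and 0.05 and were not called.

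Of 7 genes that MYC is known to repress, 6 were tested and 1 was called in each guide, against 2.89% and 2.59% of tested genes. This was CDKN1B, which encodes the CDK inhibitor p27, and it fell in both guides. It stood at 95.7, 104 and 99.1 CPM after PBS and at 54.8, 66.7 and 62.9 CPM after SCF in sgControl cells, and at 105, 97.6 and 97.6 CPM and 62.3, 61.5 and 62.6 CPM in sgEGR1 cells. All SCF libraries lay below all PBS libraries. The log2 fold changes were -0.69 in both (edgeR adjusted p = 0.000196 and 0.000188), called under every alternative tried. CDKN1A, at 0.974 to 1.80 CPM, and CDKN2B, at 9.80 to 13.3 CPM, were not called.

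The textbook targets of MondoA with MLX, TXNIP and ARRDC4, moved in opposite directions. TXNIP, an inhibitor of glucose uptake, stood at 387, 364 and 365 CPM after PBS and at 200.2, 252 and 254 CPM after SCF in sgControl cells (log2 fold change -0.66, edgeR adjusted p = 0.00265) and fell from 400 ± 45.6 to 260.0 ± 10.997 CPM (SD, n = 3) in sgEGR1 cells (-0.62, adjusted p = 0.00401). ARRDC4, a related arrestin domain gene, rose from 38.7 to 55.2 CPM in sgControl (0.51, adjusted p = 0.00322) and from 38.6 to 55.1 CPM in sgEGR1 cells (0.52, adjusted p = 0.00315). The SCF libraries of both genes were separate from the PBS libraries, and both calls were kept under every alternative tried.

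**Figure D5:**
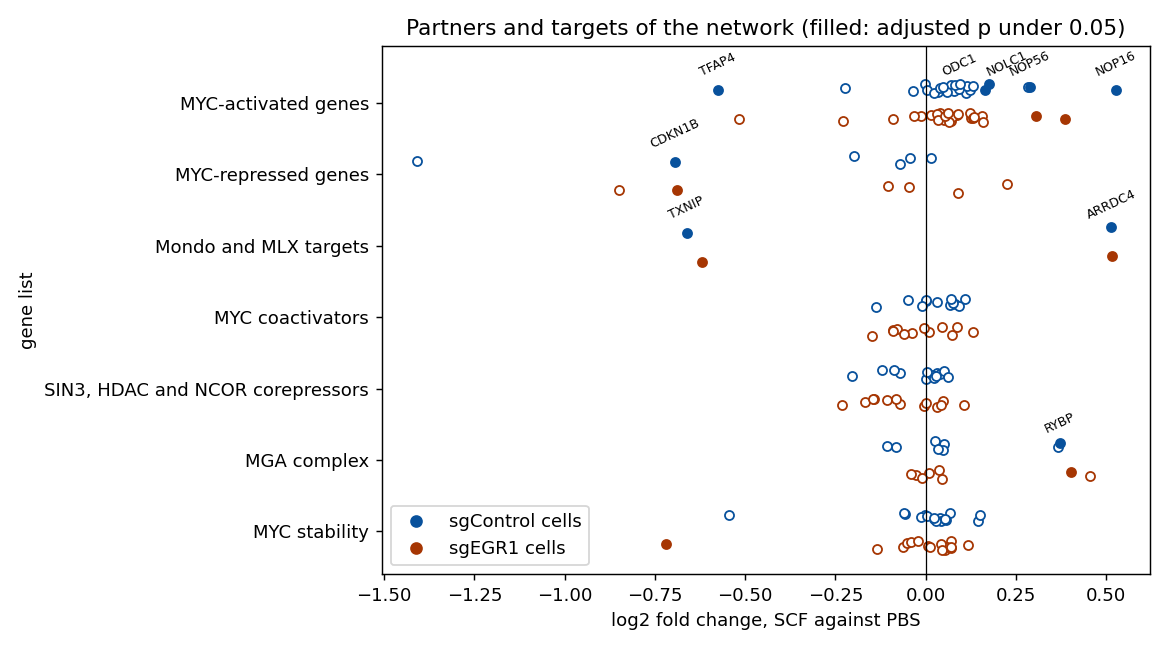
Log2 fold change of SCF against PBS (x axis) for each tested gene of 7 lists of partners and targets (rows), in sgControl (blue) and sgEGR1 cells (orange), with filled points where the edgeR adjusted p was under 0.05. Most genes sit close to 0. Names mark the genes called in sgControl cells, among them CDKN1B and TXNIP to the left and NOP16, ARRDC4 and RYBP to the right. A name does not mark distance from 0: NOLC1 (0.18) and ODC1 (0.16) are named, while GAS1, at -1.41 in sgControl cells, was not called and is not named.

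The genes whose log2 CPM followed that of MYC most closely over the 12 libraries were EGR2 (Pearson r = 0.993), which rose from a mean of 4.20 CPM after PBS to 22.1 CPM after SCF, TWNK (r = 0.99), from 14.0 to 20.2 CPM, and ELOA (r = 0.988), from 68.2 to 84.5 CPM. These values mostly reflect the separation of 6 PBS from 6 SCF libraries, so they describe that shared step. For MXI1, which has no such step, the closest genes were SSR1 (r = 0.859), PIK3CA (r = 0.837) and PIGN (r = 0.831), each with PBS and SCF means within 1 CPM of each other. The 12 libraries share cell line and replicate structure, and no p is given for likeness.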

How the data were processed

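RNA-seq counts of the MYC network genes were analyzed in 12 HUDEP-2 libraries, 4 groups of 3, grouped by their labels. The deposited values are StringTie estimates of gene counts, which the authors derived from read pairs mapped on hg38 by HISAT2 and left unscaled for depth and length. Libraries were strand-specific and paired-end. The annotation release, the strand setting of counting and treatment of multi-mapping reads are not given in the sources used here. The deposited estimated counts held 0 values that were not whole, and 0 columns of other samples were present. The column code for the guide was taken as sgEGR1 because the labels name no other construct besides the control.

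From the counts, CPM values with TMM scaled totals and the quasi-likelihood test of edgeR 4.0.16 in R 4.3.3 were computed, with 1 coefficient per group over all 12 libraries, the filterByExpr filter (15492 of 27654 genes with a count) and Benjamini-Hochberg adjustment over all tested genes. A gene was called at an adjusted p under 0.05. The study's methods call the replicates biological, isolated one by one, while the labels do not say whether they were separate cultures, so p-values measure the spread between these libraries only. Totals of 23.5 to 32.04 megacounts set the precision, floors of 3 counts cover counting error only, and 0 pairs of replicates agreed within sampling noise. Alternatives were DESeq2 1.42.0, DESeq2 size factors, no filter, each library left out, a replicate block, a term for replicate 1, replicates 2 and 3 only and, added after seeing the data, that term with sgEGR1 SCF replicate 3 left out. Residual correlations of same-numbered libraries were 0.377, 0.135 and 0.126 for SCF in sgEGR1 cells, 0.345, 0.174 and 0.212 between guides after PBS and 0.419, 0.161 and 0.183 after SCF, all over 0.1, so the numbers were taken to pair these samples, from the data and not the labels. For SCF in sgControl cells they were 0.418, 0.0695 and 0.183, with only replicate 2 under 0.1. The other comparisons also link these samples by number, so pairing in sgControl cells was left undecided. Residuals were taken from group means, and replicate 1 stood apart in every group. These values therefore cannot tell pairing of replicates 2 and 3 from the shift of replicate 1. The code was tested on simulated data.

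The members, the gene lists and the rule for naming were chosen with earlier results of these data known. All 9 members were named. Other network genes were named if called in either SCF comparison, up to 4 per list by adjusted p, and likeness was ranked among genes of at least 2 mean CPM with a pseudocount of 0.5. Levels per kilobase used the union of exons in GENCODE, and the longest transcript as an alternative. Promoter windows came from RefSeq. The sequence of the control guide is not reported here.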

Additional observations from a re-analysis of the deposited data

How the results depend on the processing

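MYC kept its call and direction under each of the 19 alternatives in sgControl cells, in sgEGR1 cells and in the average, as MLX did in the average. The number of called members in sgControl cells was 1 as reported, 3 with DESeq2, 5 with the replicate block, 4 with a term for replicate 1, 6 with that term and without sgEGR1 SCF replicate 3 (chosen after seeing the data), and 1 to 2 with a library left out. In sgEGR1 cells it was 1, with 2 under the block, 3 with the replicate 1 term and 1 in each fit without a library. In the average it was 6, with 2 to 5 when a library was left out, 5 with DESeq2 size factors, 4 without the filter and 4 with replicates 2 and 3 only. It stayed at 6 with DESeq2, with the replicate block and with the replicate 1 term, also without sgEGR1 SCF replicate 3. The block changed no member call between guides or in the interaction. In sgControl cells, where pairing by number was left undecided, it called MYC, MAX, MXD3, MXD4 and MLX. There it raised the calls over all genes from 447 to 1184. In sgEGR1 cells it raised them from 402 to 1235, and in the average from 1402 to 2795. DESeq2 called 759 and 773 genes in the single guides, and the replicate 1 term 1289, 1326 and 2869. Replicates 2 and 3 alone gave 718 genes in sgEGR1 cells. The cause of these shifts was not tested. The share of MYC among MAX partners was 32.2% after PBS and 50.0% after SCF when the longest transcript set the length.

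Signs turned only for values near 0 that were not called in these comparisons. With a library left out, the log2 values whose sign turned ranged as follows. For SCF against PBS in sgControl cells they were -0.026 to 0.058 for MXI1, -0.096 to 0.051 for MGA and -0.062 to 0.092 for MNT. For MXI1 the range was -0.060 to 0.0098 in sgEGR1 cells. For the average it was -0.027 to 0.015 for MXI1. For the guides after PBS they were -0.044 to 0.088 for MLX, -0.067 to 0.063 for MYC and -0.19 to 0.0053 for MXD3. For the guides after SCF they were -0.047 to 0.035 for MXD3, -0.0078 to 0.059 for MXI1, -0.10 to 0.039 for MXD1, -0.051 to 0.028 for MAX, -0.0066 to 0.11 for MXD4, -0.088 to 0.043 for MLX and -0.096 to 0.044 for MYC. For the interaction they were -0.11 to 0.058 for MYC, -0.018 to 0.12 for MXD1, -0.12 to 0.014 for MLX, -0.013 to 0.18 for MXD3 and -0.091 to 0.027 for MXD4. Without a filter the turned value was MXI1 0.0028 in the average. With the replicate block the turned value was MNT -4.4e-05 in sgControl cells. From replicates 2 and 3 only the turned values were MGA 0.045 in sgControl cells, MYC 0.024 in the guide comparison after PBS, MYC 0.045, MXI1 -0.025 and MLX 0.015 in the guide comparison after SCF and MYC 0.022 and MXD1 -0.012 in the interaction. With the replicate 1 term and without sgEGR1 SCF replicate 3 the turned values were MXI1 0.0075 in the average, MAX 0.018 and MXD3 0.015 in the guide comparison after SCF and MXD1 -0.017 and MXD4 0.016 in the interaction. Depth limited MYCL and MLXIPL, at 2.22 CPM or less, more than the members, all of which held over 20 CPM.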
